A study of Mus musculus with 4 samples.

Results

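Timd4-negative Clec4f Kupffer-like macrophages are liver macrophages that carried transcripts of Clec4f, a C-type lectin restricted to Kupffer cells, in the absence of any detected transcript of Timd4, a phosphatidylserine receptor of long-lived resident Kupffer cells. They were selected on raw unique molecular identifiers (UMIs, that is counted transcripts) of single cells. A cell was a member if it had at least 10 UMIs of C1qa, C1qb and C1qc together, at least 1 of Clec4f, 0 of Timd4, 0 of Spp1 and Gpnmb, at most 1 of Cxcl9, at most 1 of Mki67 and Top2a together, and 0 of the Cd3 (Cd3d, Cd3e, Cd3g) and Cd79 (Cd79a, Cd79b) genes. The rule found 452 cells among the 31290 cells that passed quality filters. Of these, 10 came from the normal chow diet group (NCD), 48 and 366 from replicates 1 and 2 of the high-fat diet group (HFD), and 28 from the group given Jiangtang Qingre Formula, a multi-herb preparation, on top of a high-fat diet (JQF). The genes of this rule chose the cells, so their values below are a description and carry no test.

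The samples were liver cell suspensions of male C57BL/6J mice with no genetic modification named in the labels, sequenced with a droplet-based 3' single-cell workflow. There was 1 library of NCD, 2 of HFD and 1 of JQF, and the labels do not say whether the HFD libraries came from separate animals. The methods of the study give n = 2 for the mouse livers of HFD and n = 1 each for NCD and JQF. NCD and JQF therefore had no replicate. Each p-value below rests on a spread between these libraries. This spread was estimated largely with information shared across genes, and in effect wholly so in the comparison with Timd4-positive Clec4f cells. A gene could thus pass although its own libraries disagreed. Liver resident macrophages sit inside the sinusoids, where they clear bacteria, aged red cells and lipoprotein remnants from blood. When resident Kupffer cells are lost, circulating monocytes enter the niche and acquire Clec4f before Timd4, so a Timd4-negative, Clec4f-positive cell is widely read as a recently derived Kupffer cell. Whether these 452 cells have that origin was not tested.

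The 4 libraries held 67615639 to 108062769 UMIs in kept cells, with a median of 7608 to 13081 UMIs per kept cell. Between 14 and 30 called barcodes were shared by any pair of libraries. Of the members, 1 barcode of HFD replicate 2 was also kept in another library, where it was not a member. The median member held 3632.5 UMIs in NCD, 8098.5 and 7429.5 in HFD replicates 1 and 2, and 5566 in JQF, whereas the median Timd4-positive cell of the same gate held 14691, 9382, 8991 and 9533. NCD and JQF members were thus shallow beside the Timd4-positive cells of their own libraries. All NCD members together held 45395 UMIs, and 1 cell of 13827 UMIs gave 30.5% of them.

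Clec4f (ENSMUSG00000014542) lies on chromosome 6 at 83644542 to 83656187 of GRCm38. Its nearest annotated neighbour on that side, Cd207 (ENSMUSG00000034783, 83671215 to 83677857), encodes langerin, the lectin of Langerhans cells. The gap between these protein-coding genes was 15.0 kb and held 0 other annotated genes, and both lie on the minus strand. Marco (ENSMUSG00000026390, chromosome 1, 120474538 to 120505024) encodes a scavenger receptor for bacteria and particles. The RefSeq promoters of these 3 genes are shown because Clec4f defined the cells, Cd207 was the one gene of the Kupffer identity list called higher in members than in Timd4-positive cells, and Marco differed widely between libraries. Each runs 5′ to 3′ from 250 bases before to 50 bases after the gene start on the gene's own strand (GRCm38.p6), with matches to any of 3 searched motifs in capitals. Clec4f is chr6:83656067-83656366, Cd207 is chr6:83677808-83678107 and Marco is chr1:120504975-120505274.
Clec4f: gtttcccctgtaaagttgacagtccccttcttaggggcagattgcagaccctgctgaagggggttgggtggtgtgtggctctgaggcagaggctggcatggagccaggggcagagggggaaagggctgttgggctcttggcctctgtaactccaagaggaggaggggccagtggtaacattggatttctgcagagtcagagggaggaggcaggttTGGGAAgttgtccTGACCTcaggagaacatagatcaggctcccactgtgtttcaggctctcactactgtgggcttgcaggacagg
Cd207: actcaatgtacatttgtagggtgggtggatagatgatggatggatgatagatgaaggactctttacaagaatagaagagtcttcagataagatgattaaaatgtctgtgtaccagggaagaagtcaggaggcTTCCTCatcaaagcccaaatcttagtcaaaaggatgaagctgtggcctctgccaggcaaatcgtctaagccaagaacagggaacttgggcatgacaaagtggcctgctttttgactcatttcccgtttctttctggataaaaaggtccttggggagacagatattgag
Marco: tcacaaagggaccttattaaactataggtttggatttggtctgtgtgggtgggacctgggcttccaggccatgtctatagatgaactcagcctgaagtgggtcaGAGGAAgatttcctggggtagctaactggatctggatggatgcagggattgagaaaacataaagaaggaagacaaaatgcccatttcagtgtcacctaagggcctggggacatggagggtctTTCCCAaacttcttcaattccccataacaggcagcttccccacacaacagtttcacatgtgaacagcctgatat
The motifs were GAGGAA (the core of sites of ETS factors such as PU.1), TGGGAA (the core of RBPJ sites) and AGGTCA (a nuclear receptor half-site), each sought on both strands. Clec4f held TGGGAA at -35 and AGGTCA at -22 from the RefSeq gene start, with no overlap between them. That start lies inside the Clec4f span given above, which comes from GENCODE, so both matches fall within that span. Cd207 held GAGGAA at -118, and Marco held GAGGAA at -146 and TGGGAA at -24. Of 32851 mouse promoters of the same length, 28.3% held GAGGAA, 25.6% held TGGGAA and 16.3% held AGGTCA, so each match is a description of the letters and not a binding site.

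As a share of kept cells, members were most frequent in HFD. They made up 0.167% of kept cells in NCD (exact Clopper-Pearson 95% interval 0.0803% to 0.308%), 0.737% (0.544% to 0.976%) and 3.57% (3.22% to 3.94%) in HFD replicates 1 and 2, and 0.328% (0.218% to 0.474%) in JQF. The intervals cover counting error only. Both HFD libraries lay above NCD and JQF, but they differed from each other by more than HFD replicate 1 differed from JQF, and their mean was 2.15% ± 2.00 (SD, n = 2). When every cell was thinned to 3000 UMIs and gated again, the shares were 0.497% in NCD, 1.29% and 6.46% in the HFD libraries, and 0.892% in JQF, in the same order. Among macrophages with at least 10 C1q UMIs members were 5.56% in NCD, 8.15% and 15.2% in the HFD libraries, and 6.22% in JQF. That order was lost after thinning and gating again. NCD then stood at 18.6%, HFD replicates 1 and 2 at 16.4% and 28.9%, and JQF at 20.9%, so HFD replicate 1 lay below NCD and JQF. The thinned gate also took in cells that failed the rule at full depth. It held 26 NCD cells, although only 6 NCD members had at least 3000 UMIs. For JQF these numbers were 71 and 22, for HFD replicate 1 75 and 44, and for HFD replicate 2 573 and 307. Most of the thinned NCD and JQF cells were thus not members at full depth. The shares are given without a test, since an exact permutation of 1 library against 2 cannot go below p = 0.333.

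In percentage points, the split of Clec4f cells by Timd4 separated the libraries more widely. Timd4-negative cells were 10.6% of all cells of the gate in NCD (10 of 94), 94.1% (48 of 51) and 57.6% (366 of 635) in HFD replicates 1 and 2, and 20.7% (28 of 135) in JQF. Timd4-positive cells of the same gate numbered 84 in NCD, 3 and 269 in the HFD libraries, and 107 in JQF. The HFD libraries thus differed from each other in the number of Timd4-positive cells, of which replicate 1 held the fewest of the 4 libraries.

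The split moved with depth, and its thinned values again include cells that failed the rule at full depth. After thinning, the Timd4-negative share became 24.3% in NCD, 97.4% and 68.6% in the HFD libraries, and 42.5% in JQF. Among cells with at least 5000 UMIs it was 2.67% in NCD (2 of 75), 94.7% (36 of 38) and 54.9% (241 of 439) in HFD, and 17.0% (18 of 106) in JQF. The order of the libraries was the same on all 3 scales, whereas the level in NCD and JQF moved with depth and the levels in HFD moved less. Cells with at least 3000 UMIs entered the thinning, which were 5230 in NCD, 5824 and 8868 in the HFD libraries and 7964 in JQF.

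**Figure D1:**
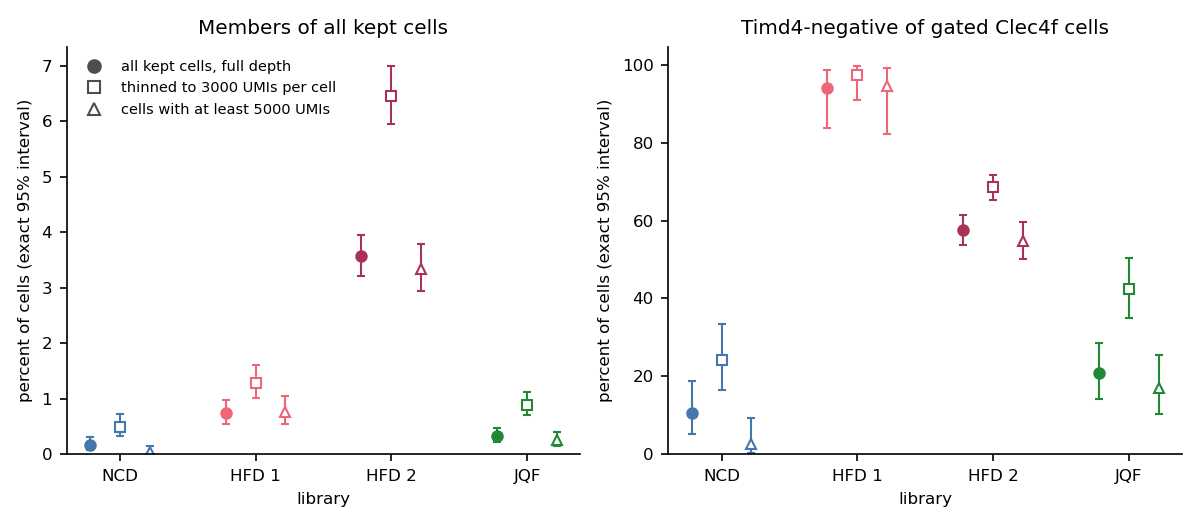
Percent of cells in each of the 4 libraries, as all kept cells (left) and as Clec4f cells of the gate (right), with exact 95% intervals. Both HFD libraries sit above NCD and JQF in each panel, and HFD replicate 1 and 2 lie far apart from each other.

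The gate had soft borders. Of the members, 4 in NCD, 5 and 37 in the HFD libraries and 2 in JQF carried Clec4f at exactly 1 UMI, against a median of 3 UMIs per member in NCD, 12 and 14 in the HFD libraries and 8.5 in JQF. Just outside, 7 NCD cells, 0 and 45 HFD cells and 17 JQF cells failed by exactly 1 Timd4 UMI. A further 0, 15, 104 and 6 cells failed by exactly 1 UMI of Spp1 and Gpnmb, the genes of lipid-associated macrophages. The C1q sum was 10 to 19 in 7 of the 10 NCD members, in 9 and 57 members of HFD and in 7 of JQF, and 8 or 9 in 1, 2, 11 and 1 cells just outside. Free RNA was present as well: in T cells, which do not express Clec4f, a Clec4f UMI was found in 2.05% of cells of NCD, 1.03% and 9.67% of cells of HFD replicates 1 and 2 and in 2.35% of JQF (median depths 11121.5, 7344.5, 6482.5 and 8282 UMIs). These T cells were cells with Cd3 UMIs and without any C1q UMI. T cells with free C1q RNA were thus left out, so T cell shares here and below can understate free RNA.

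The labelled identity was checked against 5 genes, namely Clec4f, Cd5l, Vsig4, Mmp12 and Cd207. Summed over members and scaled to 1e6 UMIs in each library (CPM), Clec4f was 1322 CPM in NCD, 2251 and 2671 in HFD replicates 1 and 2, and 1546 in JQF. Cd5l, a secreted scavenger protein of tissue macrophages, was 3062, 4815, 4757 and 2599 in the same order and was detected in 10 of 10, 47 of 48, 349 of 366 and 25 of 28 members. Vsig4, a complement receptor of Kupffer cells, was 1057, 623, 1188 and 944. It was found in 7, 17, 259 and 22 members, the lowest share being in HFD replicate 1. T cells, which should lack both genes, held a Cd5l UMI in 2.73%, 2.85%, 16.1% and 2.88% of cells and a Vsig4 UMI in 0.820%, 0.114%, 4.46% and 1.60%, at the depths given above. Of the macrophages with Clec4f at 0 that otherwise passed the gate, whatever their Timd4, 41.2% and 61.9% in HFD and 23.4% in JQF held a Cd5l UMI, so Cd5l was not restricted to members. Cd207 was 132, 569, 510 and 399 CPM and Mmp12, an elastase of macrophages, 0, 335, 543 and 1824. Mmp12 was not detected in NCD members, where a count of 0 allows up to 66.1 CPM (a floor of 3 UMIs over the group). Clec4f was part of the rule, so its presence checks nothing. Of the other 4 genes, Cd5l, Vsig4 and Cd207 were found in members of every library, Cd207 in 3 of 10, 28 of 48, 222 of 366 and 10 of 28, and Mmp12 was found in those of HFD and JQF, where 3 cells gave 86.7% of its JQF UMIs. Mmp12 was not restricted to members. In HFD replicate 2 it was found in 34.2% of members, 38.3% of Timd4-positive cells and 21.9% of macrophages with Clec4f at 0. T cells of that library held it in 6.55%. Its log2 fold change in members against Timd4-positive cells was 0.89 ± 0.32 (SE) and did not pass (adjusted p = 0.20, edgeR).

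Members also carried the general macrophage genes Adgre1 (F4/80), at 463, 626, 743 and 459 CPM, and Csf1r, the receptor of the macrophage growth factor CSF1, at 242, 973, 1067 and 762. Markers of other cell types differed in level. The 8 T or NK cell markers summed to 44.1 to 114 CPM in members and the 5 B or plasma cell markers to 0 to 117. The 10 hepatocyte markers summed to 1388 CPM in NCD members, 983 and 1482 in HFD and 1486 in JQF, beside 9397, 7172, 10673 and 17298 in barcodes without a cell. The 10 endothelial markers summed to 1762 CPM in NCD members, against 551 and 700 in HFD and 234 in JQF, beside 6701, 233, 999 and 555 in barcodes without a cell. The 5 neutrophil markers summed to 2274 in JQF members, against 0 in NCD and 86.7 and 81.4 in HFD. By a doublet score 2 NCD, 0 and 22 HFD and 2 JQF members ranked among the cells expected to be doublets.

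Members of 1 library did not all look alike. In HFD replicate 2, where numbers allowed a description, Cd207 was found in 222 of 366 members and Marco in 35. Marco was seen in 10 of the 222 Cd207-positive members (4.50%) and in 17.4% of the others. Marco-positive members more often carried a UMI of Cd163, the haemoglobin scavenger receptor (42.9% against 13.3% of the rest). In JQF, Marco was found in 5 of 10 Cd207-positive members and in 61.1% of the others, and in HFD replicate 1 a single member carried Marco. These shares come from cells of 1 library each, counted at full depth, and are given without a test. Depth differed between cells, from 718 to 34142 UMIs in members of HFD replicate 2. A deeper cell is more likely to show both genes, and the part of depth in these shares was not tested.

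The first comparison asked how members differed from Timd4-positive cells of the same gate in the same library. Members had lower levels of several Kupffer genes that mark resident cells, among them Cd163 and C6, and of Apoc1, a gene of the hepatocyte marker list. Cd163 (chromosome 6, 124304656 to 124330527) was 154, 37.3 and 117 CPM in members of NCD, HFD replicate 2 and JQF, against 582, 512 and 696 in Timd4-positive cells. The groups did not overlap, and the difference was -3.03 ± 0.33 (log2 fold change ± SE, adjusted p = 2.4e-16, edgeR). In this fit the spread was in effect wholly shared across genes. Its very small p-values therefore do not measure how well a gene's own libraries agreed. C6, a component of the complement membrane attack complex, was 220, 166 and 225 against 819, 827 and 842 (-2.12 ± 0.29, adjusted p = 5.3e-10, edgeR). Apoc1, an apolipoprotein, was 507, 776 and 949 against 1329, 3842 and 2834 (-1.87 ± 0.27, adjusted p = 1.8e-09, edgeR). These 3 genes and Lepr, the leptin receptor (66.1, 24.1 and 43.3 against 91.9, 277 and 305), passed in all 11 alternative settings tried. HFD replicate 1 was left out of the fit because it had 3 Timd4-positive cells, and its members stood at 3.85 for Cd163 and 23.1 for C6.

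Apoc1 is no member of the Kupffer identity list but is 1 of the 10 hepatocyte markers. These markers, Apoc1 included, summed to 1388, 1482 and 1486 CPM in members of NCD, HFD replicate 2 and JQF. They summed to 1923, 4829 and 3704 in Timd4-positive cells and to 9397, 10673 and 17298 in barcodes without a cell. The sums thus restate the Apoc1 difference in part. Of the 10 markers 1 was called, Apoc1, while 3 had a positive and 7 a negative difference. Against the Clec4f-negative macrophages of the second comparison below, Apoc1 was higher in members (2.97 ± 0.45, adjusted p = 0.024, edgeR). The part of hepatocyte RNA in the Apoc1 difference was not tested.

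Across all genes, 72 of 9230 were higher in members (0.78%) and 58 were lower (0.628%). Of 19 Kupffer identity genes other than the gate genes, 1 was higher and 8 were lower, and the median log2 fold change was -0.79 beside -0.05 over all genes tested. The lower ones were Vsig4, Marco, Folr2 (folate receptor beta), Cd163, Fcna (ficolin A), C6, Cdh5 (VE-cadherin) and Paqr9. Of these, Paqr9 lost its call under 9 of 11 alternatives and Folr2 and Cdh5 under 7 of 11. Vsig4 was 1057, 1188 and 944 in members against 1993, 2266 and 2488 in Timd4-positive cells (-1.16 ± 0.26, adjusted p = 0.00095, edgeR). Cd5l, by contrast, gave -0.72 ± 0.24 and Clec1b, a C-type lectin receptor, -0.48 ± 0.29, and neither passed (adjusted p = 0.14 and 1, edgeR).

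Marco differed between libraries. It was 352, 52.6 and 927 CPM in members of NCD, HFD replicate 2 and JQF and 691, 666 and 824 in Timd4-positive cells. Members lay below in NCD and HFD replicate 2 and above in JQF, and the call (-1.58 ± 0.32, adjusted p = 0.00015, edgeR) was lost under 7 of 11 alternatives. In HFD replicate 2, with every cell thinned to 3000 UMIs, Marco was detected in 7.17% of members and 39.6% of Timd4-positive cells, Cd163 in 8.14% and 58.4%, and Vsig4 in 65.1% and 95.1% (unthinned 9.56% and 50.2%, 16.1% and 69.9%, 70.8% and 97.0%). T cells of that library gave 0.965%, 0.0804% and 1.61% for the 3 genes after thinning. The shares in members lay above these values, which can understate free RNA because the T cells were chosen without C1q UMIs.

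Cd207 went the other way. It was 510 and 399 CPM in members of HFD replicate 2 and JQF against 101 and 183 in Timd4-positive cells, but 132 against 262 in NCD. Across the 3 libraries the difference was 1.13 ± 0.31 (adjusted p = 0.030, edgeR), and without NCD it was 1.78. The call was lost without the HFD library, without the JQF library, without the low-count filter and with DESeq2. After thinning, 53.4% of members and 17.1% of Timd4-positive cells of HFD replicate 2 held a Cd207 UMI, beside 0.723% of T cells (unthinned 60.7%, 29.7% and 1.93%). In JQF the thinned shares were 36.4% of 22 members and 24.0% of 100 Timd4-positive cells, with intervals that overlapped.

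Complement genes were also lower in members. Of 15 complement and Fc receptor genes, 5 were lower and 1, the inhibitory receptor Fcgr2b, was higher. Over all genes 0.628% were lower and 0.78% higher. Among the lower genes were C6, Vsig4, C4b (complement C4) and Cfp (properdin). Fcgr2b lost its call under 9 of 11 alternatives and Cfp under 7. C4b was 132, 47.3 and 86.6 in members against 254, 219 and 218 (-1.72 ± 0.34, adjusted p = 7.4e-05, edgeR). C2, another complement protease and outside that list, was 22, 6.17 and 21.7 against 62.9, 92.1 and 99.1 (-3.34 ± 0.44, adjusted p = 3.1e-11, edgeR).

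Of 16 genes of monocyte origin, 5 were higher in members, beside 0.78% of all genes. These 5 were Ccr2 and Cx3cr1 (chemokine receptors of monocytes), S100a4, S100a11 and Plac8. Ccr2 was 0, 68.8 and 69.3 CPM in members of NCD, HFD replicate 2 and JQF and 0.723, 19 and 0 in Timd4-positive cells (2.67 ± 0.46, adjusted p = 2.6e-06, edgeR). Cx3cr1 was 0, 70.6 and 39.0 against 2.17, 17.3 and 3.6. These levels were low, since Ccr2 was seen in 9 and 56 members of HFD replicates 1 and 2 and in 3 of JQF, and all 5 calls were lost without the JQF library. DESeq2 called 0 of the 16, of which 7 had an unadjusted p under 0.05 with edgeR. The 10 genes with the largest rises, led by Ptgs2, Lgals1 and Retreg1, also lost their calls without JQF, whereas the 10 with the largest falls all held them. Leaving out the deepest cell of each population, 1 of the 10 largest rises and 8 of the 10 largest falls held. That fit also lacked NCD. Without NCD alone, 4 of the rises and 10 of the falls held.

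None of 15 Kupffer transcription factors passed in either direction with edgeR, beside 0.78% higher and 0.628% lower over all genes, a background at which a count of 0 among 15 is no result about them. There was 1 higher and 0 lower at an unadjusted p under 0.05, and DESeq2 called 0. Nr1h3, encoding the sterol receptor LXR alpha, was 264, 477 and 247 CPM in members and 354, 469 and 468 in Timd4-positive cells (-0.47 ± 0.29). Id3 was 815, 883 and 823 against 750, 750 and 1055 (-0.07 ± 0.26). Of 9 MHC class II genes only H2-Eb1 passed, being 1366, 3375 and 2876 against 1352, 1360 and 919 (0.97 ± 0.26, adjusted p = 0.020, edgeR), so that NCD members and Timd4-positive cells were alike in level.

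**Figure D2:**
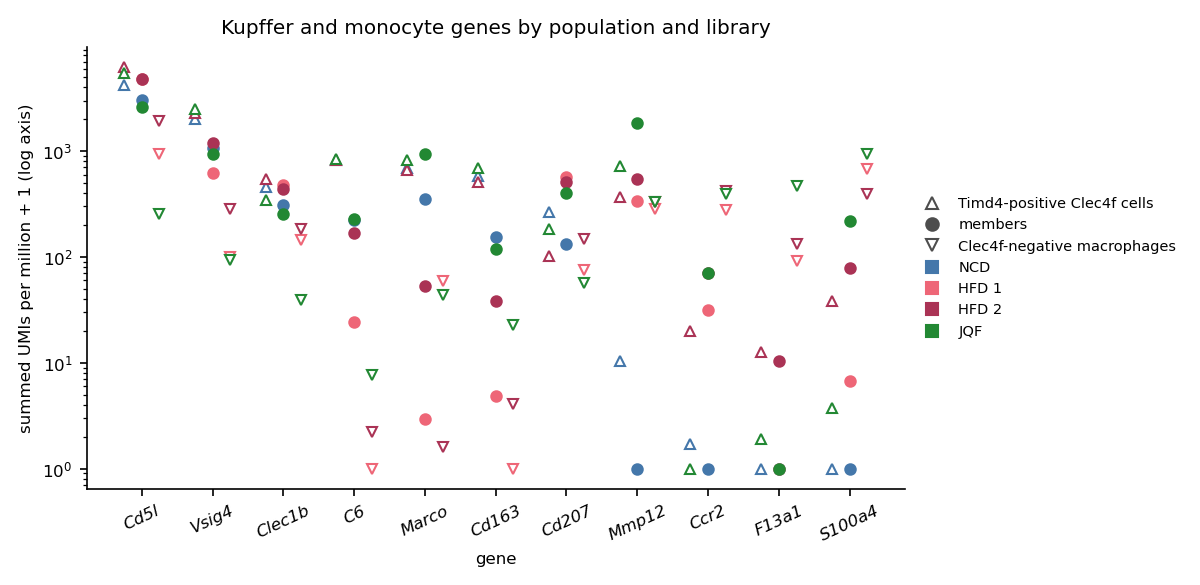
Summed CPM plus 1 (log axis) of Kupffer and monocyte genes in members, Timd4-positive cells and Clec4f-negative macrophages, one point per library. Members lie below Timd4-positive cells for Cd163 and C6 in NCD, HFD replicate 2 and JQF, and above Clec4f-negative macrophages for Vsig4 and Cd5l in HFD and JQF. Populations of under 10 cells are not drawn.

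The second comparison set members beside Clec4f-negative macrophages, which passed the same gate except that Clec4f was at 0 and Timd4 was not considered, in both HFD libraries and JQF. A Timd4 UMI was found in 0 of 85 and 1.29% of 155 of these cells in HFD replicates 1 and 2 and in 4.69% of 64 in JQF. Members were far richer in Kupffer genes and poorer in monocyte genes. C6 was 23.1 and 166 CPM in members of HFD replicates 1 and 2 and 225 in JQF, against 0, 1.22 and 6.59 (5.90 ± 0.40, adjusted p = 0.0036, edgeR). Vsig4 was 623, 1188 and 944 against 98.3, 280 and 92.2 (2.65 ± 0.25, adjusted p = 0.0069, edgeR). Cd207 was 569, 510 and 399 against 74.9, 147 and 56.0 (2.46 ± 0.26, adjusted p = 0.011, edgeR). No library overlapped between populations for these 3 genes.

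In all, 150 of 8311 genes were higher in members (1.8%) and 145 were lower (1.74%). Of 19 Kupffer identity genes 13 were higher, with a median of 2.02 beside 0.00037 over all genes tested. They included Cd5l (4815, 4757 and 2599 against 930, 1922 and 253), Slc40a1, the iron exporter ferroportin (1704, 1586 and 1144 against 503, 638 and 126), Folr2, Clec1b and Cd163. Marco (2.57 ± 1.34), Adgre1 (0.64 ± 0.19) and Mmp12 (1.13 ± 0.39) did not pass (adjusted p = 0.37, 0.12 and 0.18, edgeR). Trem2, a lipid receptor of lipid-associated macrophages, was 183, 129 and 173 against 140, 178 and 166.

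Of 17 genes of monocyte origin 10 were lower in members, beside 1.74% of all genes, and the median was -1.83. Ccr2 was 30.8, 68.8 and 69.3 CPM in members against 277, 415 and 391 (-2.73 ± 0.21, adjusted p = 0.0036, edgeR). F13a1, the clotting factor of monocytes, was 0, 9.41 and 0 against 91.3, 131 and 471 (-4.63 ± 0.56, adjusted p = 0.014, edgeR). Cx3cr1, Chil3, Fn1, S100a4, Plac8, Itgam, Ms4a4c and Hp were the other 8. In HFD replicate 2 and JQF, the Ccr2 level of members thus lay above that of Timd4-positive cells and below that of Clec4f-negative macrophages.

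Further groups separated the populations in part, beside 1.8% of all genes higher in members and 1.74% lower. Among 23 lysosomal genes 5 were higher in members, namely the proteases Ctsb, Ctsd, Ctsl and Lgmn and the lysosomal regulator Grn. Ctsb was 5453, 5371 and 5570 against 2199, 3401 and 2119 (1.11 ± 0.19, adjusted p = 0.028, edgeR). Of 20 lipid and cholesterol genes 3 were higher, the fatty acid binding protein gene Fabp7 (474, 634 and 437 against 55.0, 92.5 and 79.1, 2.77 ± 0.19), the desaturase gene Scd1 (2.76 ± 0.25) and the cholesterol exporter gene Abca1 (1.04 ± 0.18). Of 12 MHC class II genes 2 were lower, H2-Eb1 (3566, 3375 and 2876 against 6872, 5015 and 5546) and Ciita, the class II transactivator. Mrc1, the mannose receptor, and Igf1 were higher by 1.57 ± 0.18 and 1.39 ± 0.26.

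The calls of this comparison rested on HFD replicate 2, which held 366 of the members. Without it 0 genes passed with edgeR, 914 had an unadjusted p under 0.05, and 276 of the 295 called genes had the same sign. Without HFD replicate 1, 231 passed, and without JQF, 816. DESeq2 called 338.

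**Figure D3:**
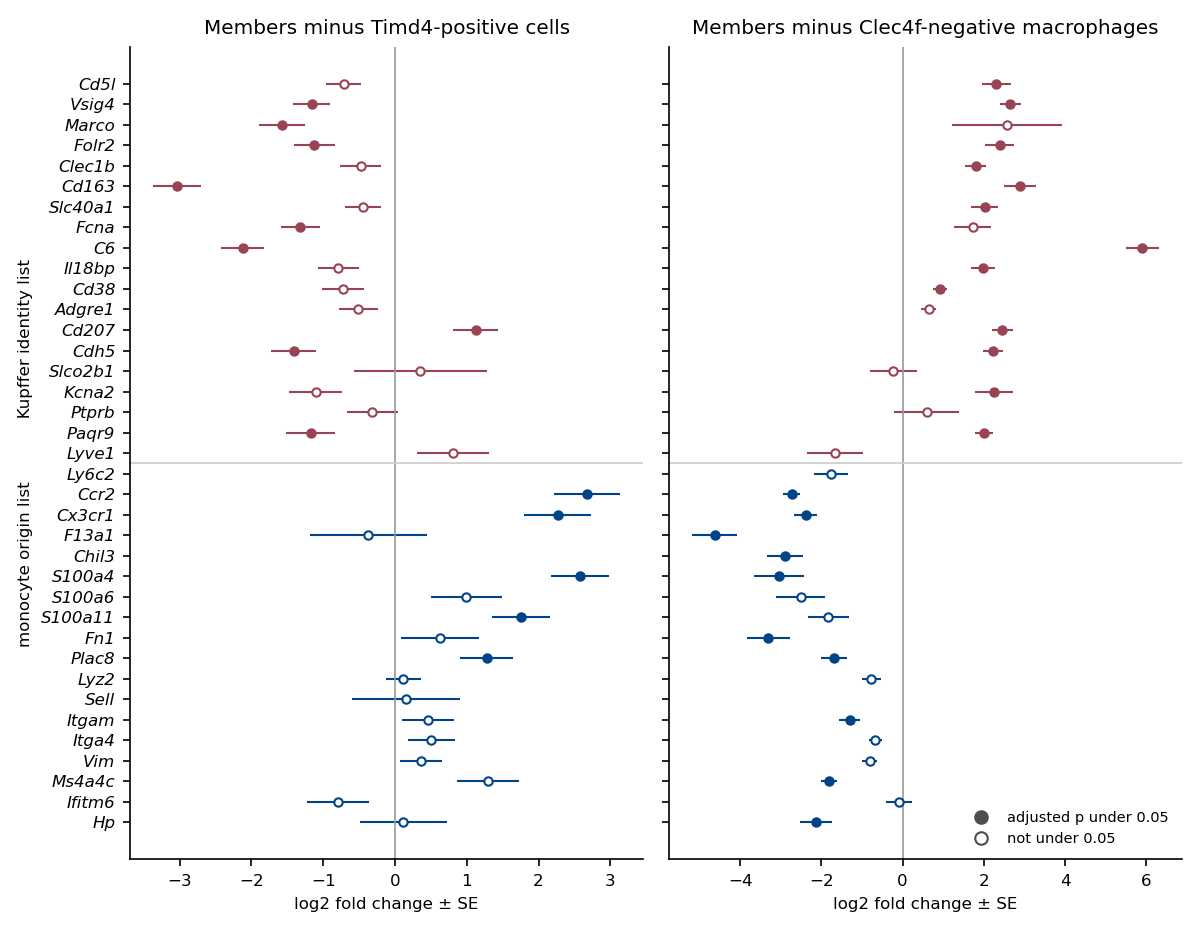
Log2 fold change ± SE of the Kupffer identity and monocyte origin genes in members against Timd4-positive cells (left) and against Clec4f-negative macrophages (right), filled where the adjusted p was under 0.05. Kupffer genes lie mostly below 0 in the left panel and above 0 in the right, and monocyte genes lie below 0 in the right panel.

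The third comparison asked how members changed with Jiangtang Qingre Formula. Fth1 and Hmox1, genes of iron handling, were higher in JQF than in HFD. Fth1, the heavy chain of the iron store ferritin (chromosome 19, 9980598 to 9985098), was 3625 and 4181 CPM in members of HFD replicates 1 and 2 and 20242 in JQF, with 4758 in NCD. JQF lay outside both HFD libraries, and the difference was 2.37 ± 0.16 (adjusted p = 1.3e-06, edgeR). Hmox1, haem oxygenase 1, was 973 and 825 in HFD and 2829 in JQF, with 3525 in NCD (1.65 ± 0.19, adjusted p = 0.00027, edgeR). Both genes passed under every alternative with a test. Fth1 was carried by 28 of 28 JQF members and Hmox1 by 26, but 1 cell gave 23.3% of the Fth1 and 30.0% of the Hmox1 UMIs. After thinning to 3000 UMIs and gating again, which gave 71 JQF cells, most of them not members at full depth, the Fth1 difference was 1.14. Fth1 and Ftl1 have processed pseudogenes that can share reads with them.

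Of 14 iron and haem genes 6 were higher in JQF (Fth1, Hmox1, Ftl1, Gclm, Bach1 and Spic), beside 209 of 6562 genes higher (3.19%) and 98 lower (1.49%) in all. Ftl1, the ferritin light chain gene, turned to -0.093 after thinning and lost its call under 6 more of 9 alternatives, and Bach1, a haem-binding repressor gene, lost its call under 6 of 9. With relative log expression size factors the split was 183 higher and 50 lower. The Timd4-positive cells gave 5305 in HFD replicate 2 and 8484 in JQF for Fth1 and 1311 and 2373 for Hmox1, in the same libraries.

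Marco rose in JQF. It was 1.93 and 52.6 CPM in members of HFD replicates 1 and 2, 927 in JQF and 352 in NCD (JQF against HFD 4.65 ± 0.56, adjusted p = 0.00042, edgeR). Marco was found in 1 of 48 and 35 of 366 HFD members and in 16 of 28 JQF members, and the 3 richest JQF cells gave 71.0% of its UMIs. The call was lost only with DESeq2. Mmp12 was 335 and 543 in HFD and 1824 in JQF (2.03 ± 0.26, adjusted p = 0.00090, edgeR), with 86.7% of the JQF UMIs in 3 cells. It was detected in 16, 125 and 16 members, and with thinned cells the difference was 0.79 and did not pass. Cd207 (569 and 510 against 399, -0.44 ± 0.24) and Vsig4 (623 and 1188 against 944, 0.04 ± 0.32) did not pass (adjusted p = 0.37 and 0.98, edgeR). Of 17 lipid-associated macrophage genes 7 were higher in JQF (Mmp12, Cd9, Lpl, Lgals3, Lgals1, Ctsd and Cd36) and 1, Apoe, was lower. Of 13 genes of monocyte origin 4 were higher (S100a6, S100a11, Itgam and Vim) and 0 lower. Over all genes 3.19% were higher and 1.49% lower, and DESeq2 called 0 on either list. After thinning Cd9, Lgals3 and Lgals1 changed sign. Ctsd and Itgam lost their calls under 7 of 9 alternatives and Apoe and Vim under 6.

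Inflammatory genes were higher in JQF for 5 of the 21 genes tested, beside 3.19% of all genes higher. These 5 were the chemokines Ccl3, Ccl4 and Cxcl2, the cytokine Tnf and the prostaglandin synthase Ptgs2. With DESeq2 1 of the 21 was higher. Ccl4 was 407 and 673 in HFD and 2084 in JQF (1.93 ± 0.26, adjusted p = 0.0013, edgeR). Cxcl2 was 170 and 622 in HFD and 3296 in JQF, with 427 of its 761 JQF UMIs in 1 cell. Tnf, Cxcl2 and Ptgs2 lost their calls when the deepest cell was left out, in a fit that also lacked NCD.

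That cell dominated the largest differences. The deepest JQF member held 32481 UMIs, which was 14.1% of all JQF member UMIs. It carried 2 Clec4f UMIs, 0 of Cd5l and 0 of Vsig4, together with 232 of S100a8 and 262 of S100a9, the calprotectin genes of neutrophils. It met the rule, but it lacked Cd5l and Vsig4, and its UMIs made up 183 of 184 for Il1f9, 229 of 229 for Slc7a11 (cystine transporter), 196 of 196 for Slpi and 17 of 17 for Chil1. Without the deepest cell of each library 62 genes passed in place of 307, with 53 higher and 9 lower. That fit also lacked the NCD library, which was left with 9 members. Of the 10 genes with the largest rises 1 then kept its call, Slc22a4, and S100a8 and S100a9 fell out of the tested genes.

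Of 20 interferon-stimulated genes 3 were lower in JQF and 0 higher, beside 1.49% of all genes lower, namely Ifi44 (102 and 98.5 against 8.66), Irf7 (312 and 299 against 99.6) and Ifitm3 (977 and 1249 against 511). Others of the list differed in the other direction without passing, at 1.35 ± 0.39 for Isg15, 1.45 ± 0.47 for Ifit1 and 1.27 ± 0.38 for Rsad2 (adjusted p = 0.073, 0.10 and 0.079, edgeR), and Irf7 lost its call under 4 of 9 alternatives. Of the Kupffer identity genes, Cd5l (4815 and 4757 against 2599), Folr2, Il18bp, Cd38 and Paqr9 were lower and Marco alone was higher. After thinning the difference changed sign for 3 of these 5 lower genes, to 0.058 for Cd5l, 0.21 for Folr2 and 0.11 for Cd38. The thinned JQF cells were mostly not members at full depth. Ifitm3 and Il18bp each lost the call under 5 of 9 alternatives. Mertk, a receptor for dying cells, was 1266 and 1070 in HFD and 459 in JQF (-1.35 ± 0.24, adjusted p = 0.0062, edgeR), and the call was lost under 4 of 9 alternatives. DESeq2 called 0 genes lower and 16 higher, with 84 genes at an unadjusted p under 0.05.

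**Figure D4:**
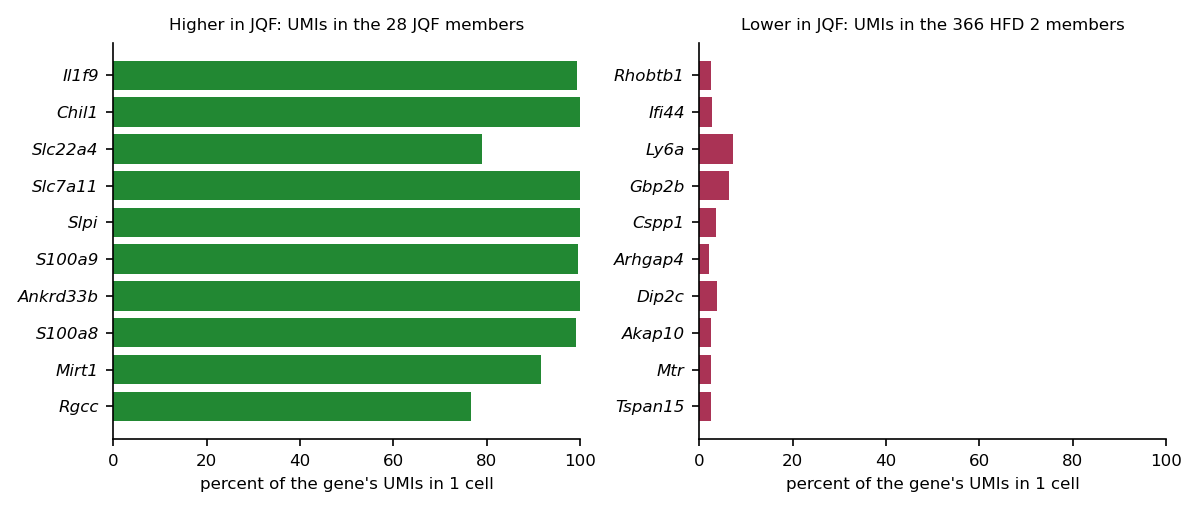
Percent of a gene's UMIs that came from 1 member cell, for the 10 genes with the largest rises in JQF (left, JQF members) and the 10 with the largest falls (right, HFD replicate 2 members). Most of the rising genes come from 1 cell, and for the falling genes no cell of HFD replicate 2 gave more than 7.13%.

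The fourth comparison, HFD against NCD, rested on 10 NCD members. The median mitochondrial share of members was 6.40% in NCD and 4.48% and 4.13% in HFD replicates 1 and 2. Their median number of genes was 1447 in NCD and 2579.5 and 2626 in HFD. The 10 genes with the largest rises in HFD all had 0 UMIs in NCD members, where the floor was 66.1 CPM. Besides Mmp12 and Ccl9 they included Ccnd3, Uqcrb, Cox5b, Ubl5 and Mif, at a mean of 268, 251, 220, 215 and 201 CPM in HFD. Their calls thus rest on a group at the floor, and with DESeq2 only Mmp12 kept its call. The part of NCD depth in these rises was not tested. Most MHC class II genes tested, which present antigen to helper T cells, were higher in HFD. H2-Ab1 was 1079 CPM in NCD and 4015 and 3484 in HFD replicates 1 and 2 (1.99 ± 0.22, adjusted p = 0.00049, edgeR), and Cd74, the invariant chain, was 2445 against 7284 and 7136 (1.75 ± 0.18, adjusted p = 0.00035, edgeR). Of 9 MHC class II genes 7 were higher, beside 272 of 6562 genes higher (4.15%) and 141 lower (2.15%) in all. Of the 7, Ciita had 0 UMIs in NCD members and lost its call under 4 of 5 alternatives, and H2-DMb1 lost its call under 2. The median log2 fold change of all genes was 0.38, so these differences are relative to that shift. Of 10 class I antigen presentation genes, H2-T23 was higher (132 in NCD against 366 and 348, 1.63 ± 0.42, adjusted p = 0.038, edgeR) and H2-K1 was lower (3194 against 1509 and 1543, -0.87 ± 0.19, adjusted p = 0.019, edgeR), but H2-K1 lost its call under 4 of 5 alternatives and H2-T23 under 2. In Timd4-positive cells H2-Ab1 stood at 1559 in NCD and 1551 in HFD replicate 2.

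Apoe, the apolipoprotein of macrophages and remnant particles, was 8547 in NCD and 29219 and 24477 in HFD (1.84 ± 0.16, adjusted p = 9.1e-05, edgeR). Csf1r was 242 against 973 and 1067, and Cd207 132 against 569 and 510 (2.22 ± 0.40, adjusted p = 0.0056, edgeR). Mmp12, at 0 in NCD members, where the floor was 66.1 CPM, was 335 and 543 in HFD replicates 1 and 2. Of 20 interferon-stimulated genes 6 were higher, beside 4.15% of all genes, among them Ifitm3 (286 against 977 and 1249). Of these 6, Ifit2, Oasl2 and Ifi209 had 0 UMIs in the 10 NCD members, so that their calls rest on a group at the floor, and Ifit2, Ifi204 and Ifi209 each lost the call under 2 of 5 alternatives. Monocyte genes are not summarised by a fold here, because most had 0 UMIs in the 10 NCD members.

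Immediate early and heat shock genes, which respond to tissue handling as well as to stress, were lower in HFD for 9 of 17, beside 2.15% of all genes. Of the 9, Hsp90aa1 lost its call under 4 of 5 alternatives and Atf3 under 2. Egr1 was 3701 in NCD and 222 and 437 in HFD, and Hspa1a 2952 against 422 and 571. In NCD 1 cell of 13827 UMIs held 129 of 168 Egr1 UMIs and 116 of 134 Hspa1a UMIs. Timd4-positive cells, of which NCD had 84, gave 2604 and 303 for Egr1 and 1600 and 462 for Hspa1a in NCD and HFD replicate 2. Hspa1a and its near-identical copy Hspa1b can share reads. Of the 10 genes with the largest falls, all 18 UMIs of Rsph9 came from that same cell and 19 of 21 of Kdr, an endothelial receptor, from another. The part of the endothelial markers, whose sum was highest in NCD, in the fall of Kdr was not tested.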

How the data were processed

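Liver cell suspensions of male C57BL/6J mice (1 NCD, 2 HFD and 1 JQF library) were sequenced with the 10x Genomics 3' v3.1 chemistry. The authors deposited raw UMI counts per gene and barcode, made with Cell Ranger against mm10 and not normalized. The submitters' processing notes name Cell Ranger 6.0.1, whereas the headers of the filtered matrices name 7.0.0 and those of the raw matrices name 4. Whether intronic reads were counted is not given in the sources used here. Levels in barcodes without a cell came from the raw matrices, so they may have been counted differently from those of cells. The label that calls the cells a hematopoietic stem cell line does not describe them.

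Barcodes were kept from 500 genes upwards if mitochondrial UMIs did not exceed 20%. UMIs of member cells were summed per library and entered edgeR 4.0.16 in R 4.3.3 (filterByExpr, TMM, glmQLFTest), with Benjamini-Hochberg adjustment over all genes tested and a threshold of 0.05. HFD was compared with NCD and JQF in 1 fit of 4 libraries, where only the HFD pair had replicates, so that NCD and JQF were assumed to vary like HFD. This left 1 residual degree of freedom per gene, and 2 in the fits paired by library. The spread was therefore estimated largely with information shared across genes. In the fit against Timd4-positive cells it was in effect wholly shared, since the p-values there match a normal distribution. The spread of a gene's own libraries then did not enter. Comparisons with Timd4-positive cells and Clec4f-negative macrophages had the library as a block and used libraries with at least 10 cells in both populations, which left NCD out of the latter. Gate genes were left out of those tables. Standard errors (SE) were approximated from the F statistic. Levels (CPM) are a gene's UMIs over all UMIs of the summed cells, scaled to 1e6. Cells were thinned to 3000 UMIs with random seed 1 and, for shares of cells and for fits, gated again. Detection of genes after thinning kept the full-depth gate, in cells with at least 3000 UMIs. Doublets, scored with Scrublet in scanpy 1.11.5 on Python 3.11.15 and taken as the highest 0.8% per 1000 barcodes, were removed as an alternative only. DESeq2 1.42.0 was another alternative. Named genes were those of the gene lists and, per comparison, the 10 with the largest rises and the 10 with the largest falls among genes past the threshold with at least 50 CPM and 10 UMIs in the higher group and the same side in every HFD library, or in every library used for the paired comparisons. The members, markers and gene lists were chosen with earlier results of these data known, so counts over them are a description. The values of 1 gene of these lists are not reported here. Gene positions are those of GENCODE M21 on GRCm38, and promoters were taken from RefSeq (GRCm38.p6), where all 3 genes sought were found.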

Additional observations from a re-analysis of the deposited data

How the results depend on the processing

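The tests rest on few libraries, and the 10 NCD members and 28 JQF members give low counts, so a gene that did not pass was not shown to be equal. The comparisons with Timd4-positive cells and Clec4f-negative macrophages were paired by library. Between the diet groups, no paired analysis was possible because the groups shared only the replicate number 1, so a replicate block could not be fitted. HFD against NCD was not run with doublets removed, with Clec4f at 2 or more UMIs or in cells with at least 5000 UMIs, since each left under 10 NCD members. Nor was it run without the deepest cell, where 9 NCD members were left. The fits after thinning used cells gated again, which for NCD and JQF were mostly not members at full depth. Whether the members themselves differ in the same way at equal depth was not tested by these fits. Settings with at least 5000 UMIs, without the deepest cell and, for comparisons within members, without the NCD or JQF library were chosen after seeing the data.

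Members as a percent of kept cells became 0.497% in NCD, 1.29% and 6.46% in the HFD libraries and 0.892% in JQF after thinning and 0.0404% in NCD in cells with at least 5000 UMIs. The Timd4-negative percent of Clec4f cells became 24.3% in NCD and 42.5% in JQF after thinning and 2.67% in NCD in the deeper cells. Leaving out 1 HFD library gave 0.737% to 3.57% and 57.6% to 94.1% for HFD. Genes called between HFD and NCD numbered 413, but 42 with DESeq2 and 690 after thinning. Between JQF and HFD, 307 genes were called, but 586 without the low-count filter, 16 with DESeq2, 199 with doublets removed, 174 with Clec4f at 2 or more UMIs, 68 after thinning, 71 in the deeper cells and 62 without the deepest cell. Against Timd4-positive cells, 130 were called, but 16 with DESeq2, 31 with Clec4f at 2 or more UMIs, 23 after thinning, 58 in the deeper cells, 31 without the deepest cell and 35 to 82 when 1 library was left out, the fewest without JQF. Against Clec4f-negative macrophages, 295 were called, but 944 without the filter, 549 with doublets removed, 488 with Clec4f at 2 or more UMIs, 158 in the deeper cells, 662 without the deepest cell and 0 to 816 when 1 library was left out, the fewest without HFD replicate 2, where 914 had an unadjusted p under 0.05. In the settings with doublets removed, Clec4f at 2 or more UMIs, deeper cells or no deepest cell, NCD had under 10 members. NCD was then left out of the fits of JQF against HFD and against Timd4-positive cells as well. Without NCD alone, 82 genes were called against Timd4-positive cells. The cause of these changes was not tested.

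Differences that changed sign were those of Vsig4 between HFD and NCD, which became 0.20 without the filter and 0.11 without the JQF library and ran from -0.58 to 0.37 when 1 HFD replicate was left out, and of Vsig4 between JQF and HFD, which became -0.013 without the filter, -0.024 with doublets removed and -0.35 in the deeper cells and ran from -0.35 to 0.61 when 1 HFD replicate was left out. After thinning, the JQF against HFD differences became -0.13 for Cd9, -0.15 for Lgals3, -0.53 for Lgals1, -0.093 for Ftl1, 0.058 for Cd5l, 0.21 for Folr2, 0.11 for Cd38 and 0.082 for Pecam1. Against Timd4-positive cells, Il1rn became -0.092 after thinning, and S100a8 -0.030 and S100a9 -0.17 without the deepest cell. When 1 library was left out, S100a8 ran from -0.031 to 3.33 and S100a9 from -0.057 to 3.46, both lowest without JQF.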
